A study of Mus musculus with 6 samples.

Results

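*Cd55* and 7 further genes of the complement system were described in mouse splenic B cells that lacked the RNA-binding protein hnRNPL. The 8 genes were *Cd55*, *Cd55b*, *Cd46*, *Cr1l*, *Cd59a*, *Cd59b*, *C3* and *Cfp*, found by gene symbol among the 55421 genes of the deposited table. They were selected on the normalized counts of these same libraries, in which *Cd55* was known to be much higher without hnRNPL, with the other genes added for comparison. The difference between the genotypes is therefore given for these 8 genes as a description and without a p-value.

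Complement is a cascade of plasma proteins in which C3 is cleaved by enzyme complexes called convertases, tags surfaces, and leads on to the membrane attack complex that perforates cells. Host cells carry membrane proteins that stop the cascade on their own surface. CD55 (decay-accelerating factor) takes convertases apart, Crry and CD46 act as cofactors for the cleavage of deposited C3b and C4b, and CD59 blocks the last step of the attack complex. CD55 and Crry are widely expressed on mouse lymphocytes, while mouse CD46 is best known from the testis, and properdin, the product of *Cfp*, stabilises the convertase of the alternative pathway.

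Spleen B cells were activated for 24 h with LPS (5 μg/ml), a bacterial cell wall component, together with the cytokine IL-4 (5 ng/ml), and polyadenylated RNA was sequenced from 3 WT and 3 hnRNPL-deficient samples. Both groups carried *CD21-cre* and the *Rosa mT/mG* reporter on the C57BL6/J background, and the hnRNPL-deficient group was also homozygous for the floxed allele *Hnrnpl F/F*. WT thus means cells with Cre and reporter but intact *Hnrnpl*. GFP+ cells, in which Cre had been active, were sorted before RNA extraction. The Cre is driven by control sequences of CD21, the product of *Cr2*, which makes it active mostly in mature B cells, and both groups carry it. Mice of both sexes, all over 6 weeks of age, were used in the study. Each group held 3 mice, per the study. The labels give neither the sex nor the age of a sample.

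Values are normalized counts, meaning reads per gene divided by a size factor for the library. Reads on genes ranged from 40395186 in hnRNPL-deficient library 3, the shallowest, to 75180749 in WT library 3. *Hnrnpl*, the targeted gene, gave 24371, 25579.7 and 24174 normalized counts for WT and 2178, 1519 and 1297 for hnRNPL-deficient libraries, where its mean was 6.74% of the WT mean (log2 fold change -3.93, standard error 0.173, adjusted p = 2.23e-05 from limma). *Xist*, the RNA of the inactive X chromosome, had 98507 normalized counts in WT library 3 and 98219 in hnRNPL-deficient library 2, but at most 7.21 in the other 4. All 9 B cell markers on the list passed the filter, with sums of 343278 to 433694 in WT and 328378 to 401957 in hnRNPL-deficient libraries. Of 7 T cell markers none passed, and their sums were 9.94 to 16.2 and 7.07 to 22.5. Neutrophil markers summed to at most 1.53, and none of the 5 erythroid and platelet markers passed. Of 4 NK cell markers only *Prf1* was tested, and it was called higher (0.89, adjusted p = 0.0884 from limma). Of the dendritic cell markers 3 of 5 were tested, and *Xcr1* was called higher (1.35, adjusted p = 0.0370), at no more than 27.4 normalized counts. All 4 plasma cell markers were tested, and *Jchain* was called lower (-2.31, adjusted p = 0.0509). Of 7 macrophage and monocyte markers 3 were tested, and 2 of them, *Adgre1* and *Ly6c2*, were called higher. This list is described further beside *Cd55*.

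Of the 8 genes, 4 stand in 2 clusters on mouse chromosome 1, and each cluster pairs neighbouring regulators on the minus strand. In GRCm38, *Cd55* (ENSMUSG00000026399.12) spans 130439027 to 130462744, and its duplicate *Cd55b* (ENSMUSG00000026401.15) spans 130388537 to 130423009, 16017 bases away. The second cluster lies 64.6 Mb further along and holds *Cd46* (ENSMUSG00000016493.13), 195036826 to 195092249, and *Cr1l* (ENSMUSG00000016481.15), 195097382 to 195131586, which encodes Crry. *Cd46* and *Cr1l* are 5.13 kb apart, and *Cr2* follows 5.22 kb beyond *Cr1l*. *Cd59a* (ENSMUSG00000032679.12), 104095801 to 104115354, and *Cd59b* (ENSMUSG00000068686.12), 104069849 to 104091187, are neighbours on chromosome 2, 4.61 kb apart. *C3* (ENSMUSG00000024164.15) lies on chromosome 17, 57203970 to 57228136, and *Cfp* (ENSMUSG00000001128.7) on chromosome X, 20925454 to 20931555.

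The promoters of *Cd55* and *Cd55b* are shown because both genes had higher values without hnRNPL and arose by duplication. The *Cd55b* values are uncertain, as described below, and a shared cause was not tested. Each line gives the 250 bases before the RefSeq start site in GRCm38.p6, read along the minus strand, for *Cd55* at chr1:130462745-130462994 and for *Cd55b* at chr1:130423044-130423293. Capitals mark runs of at least 12 bases that are identical in an alignment of both.
Cd55: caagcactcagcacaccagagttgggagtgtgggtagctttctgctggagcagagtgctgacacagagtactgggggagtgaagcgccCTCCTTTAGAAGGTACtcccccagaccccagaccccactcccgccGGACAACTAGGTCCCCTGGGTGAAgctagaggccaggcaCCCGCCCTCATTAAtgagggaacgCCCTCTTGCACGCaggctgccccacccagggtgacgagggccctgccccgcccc
Cd55b: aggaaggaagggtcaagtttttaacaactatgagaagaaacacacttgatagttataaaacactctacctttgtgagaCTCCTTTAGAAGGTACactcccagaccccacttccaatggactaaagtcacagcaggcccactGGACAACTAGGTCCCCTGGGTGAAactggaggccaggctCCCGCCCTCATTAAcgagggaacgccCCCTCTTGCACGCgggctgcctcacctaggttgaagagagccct
The alignment paired 227 bases, of which 169 (74.45%) were identical, with 46 gap positions. There were 4 identical runs of at least 12 bases, the longest of 24 bases, and they took up 67 bases of each promoter.

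Motifs were searched on both strands of the same windows for all 8 genes, and the shares refer to 32851 mouse promoters of the same length. The GC box (GGGCGG) occurred 2 times in the *Cd55* promoter and 1 time in that of *Cd55b*, each on the reverse strand, in none of the other 6, and in 32.7% of all promoters. The cAMP response element half-site (TGACG) occurred 1 time, in *Cd55*, and in 17.8% of all promoters. A p53 half-site was found only in the *Cd46* promoter, with 1 match on each strand, which may be the same stretch of bases. It occurred in 7.13% of all promoters. The AP-1 site (TGANTCA, 6.75% of promoters), the E box (CACGTG, 6.02%) and the STAT6 site (5.85%) were in none of the 8. A match describes letters in this window and is not a binding site.

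*Cd55* was the complement regulator with by far the greatest difference between the genotypes. WT libraries 1, 2 and 3 held 3361, 2667 and 2996 normalized counts of it, and hnRNPL-deficient libraries 1, 2 and 3 held 21417, 16503 and 33440. Every hnRNPL-deficient library was several times above every WT library, and hnRNPL-deficient library 3 was the highest. The means were 3008 ± 347 and 23786.5 ± 8714 (SD, n = 3 each), a ratio of 7.91. On the log2(normalized count + 1) scale the difference was 2.93 (standard error 0.229), the 53rd highest of the 17640 genes that averaged 10 or more normalized counts, and it was 2.65 without hnRNPL-deficient library 3. A bulk library does not tell more RNA per cell from a larger share of cells that express the gene.

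Macrophages also carry CD55, and part of their marker list was higher in the hnRNPL-deficient libraries. The 7 macrophage and monocyte markers summed to 290.1 to 379 normalized counts in WT and 1339 to 1487 in hnRNPL-deficient libraries. Of the 3 tested, *Adgre1* (F4/80) and *Ly6c2* were called higher and *Mrc1* was not. *Adgre1* made up most of the sum, with 236, 282 and 315 normalized counts in WT and 1217, 1337 and 1369 in hnRNPL-deficient libraries (log2 difference 2.24, adjusted p = 0.000139 from limma). The 4 markers below the filter were near or at 0. *Csf1r*, the receptor for macrophage colony-stimulating factor, held at most 6.85 normalized counts, and *Lyz2*, *Cd14* and *Vcam1* at most 2.02. The part of *Adgre1*-expressing cells in the *Cd55* difference was not tested.

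*Cd55b*, whose product is the transmembrane form of decay-accelerating factor best known from the testis, was also higher, from a much lower level. It had 291, 167 and 195 normalized counts in WT and 481, 399.8 and 849.8 in hnRNPL-deficient libraries. The groups did not overlap, and hnRNPL-deficient library 3 was again the highest. The means were 218 ± 65.2 and 577 ± 239.9 (SD, n = 3 each), a ratio of 2.65 and a log2 difference of 1.36 (standard error 0.309). Without hnRNPL-deficient library 3 the difference was 1.05. In each library the count of *Cd55b* was a small percentage of that of *Cd55*, namely 8.67, 6.26 and 6.51% in WT and 2.24, 2.42 and 2.54% in hnRNPL-deficient cells, so *Cd55* differed by more than its duplicate.

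The sequences of both genes overlap in part, which bears on the values of the less abundant one. Of the 1671 windows of 100 bases in annotated *Cd55b* transcripts, 12.15% also occur in *Cd55* transcripts, while the same 203 windows are 4.19% of the 4848 windows of *Cd55*. The difference in mean normalized counts was 359 for *Cd55b*, which is 1.73% of the 20778 for *Cd55*. The *Cd55b* values are therefore uncertain, and how many of its reads came from *Cd55* was not tested. How the counting treated reads that match several places is not given in the sources used here. The mitochondrial gene *mt-Co2* and its pseudogene *Gm28661*, chosen after their values were seen, differed by only 0.00547 to 0.0818% in each library, so reads that match both may have been counted for both, and the same may hold for *Cd55* and *Cd55b*.

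*Cr1l*, which encodes the other widely expressed membrane regulator, Crry, was lower. It had 3687, 3945 and 3615 normalized counts in WT and 2118, 2283 and 2889 in hnRNPL-deficient libraries. Each hnRNPL-deficient library was below each WT library, and hnRNPL-deficient library 3 was the closest to WT. The mean was 3749 ± 174 for WT and 2429.95 ± 406 for hnRNPL-deficient libraries (SD, n = 3 each), or 64.8% of WT, with a log2 difference of -0.64 (standard error 0.129). This is just past 1.5-fold. The difference was under 1.5-fold when libraries were scaled to equal totals (-0.58), after quantile normalization (-0.57), by edgeR and DESeq2 on 5 libraries (-0.58 each) and without hnRNPL-deficient library 1 (-0.54).

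*Cd55* gained on *Cr1l* in hnRNPL-deficient cells. The ratio of their normalized counts, not corrected for length, was 0.912, 0.676 and 0.829 in WT libraries and 10.1, 7.23 and 11.6 in hnRNPL-deficient libraries. Per kb of exon sequence *Cd55* was above *Cr1l* in both genotypes. WT libraries held 549.6 to 692 normalized counts per kb for *Cd55* against 349 to 381 for *Cr1l*. In hnRNPL-deficient libraries the values were 3401 to 6891 against 205 to 279. The exon length of *Cr1l*, 10349 bases, counts every annotated isoform. Its level per kb may thus be understated, and the order in WT is uncertain.

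*Cd46*, the cofactor gene next to *Cr1l*, gave no steady direction. It had 125, 144 and 155 normalized counts in WT and 83.8, 125 and 230.3 in hnRNPL-deficient libraries. The hnRNPL-deficient values spread over the whole WT range and beyond it on both sides. The means were 142 ± 15.1 and 146 ± 75.5 (SD, n = 3 each), and the log2 difference was -0.07 (standard error 0.345). It was 0.27 without hnRNPL-deficient library 1, 0.14 by edgeR and by DESeq2, and -0.46 without hnRNPL-deficient library 3. Of its 100-base windows 12.7% lie in *A330023F24Rik*, which is transcribed from the opposite strand, and the study counted reads by strand.

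**Figure D1:**
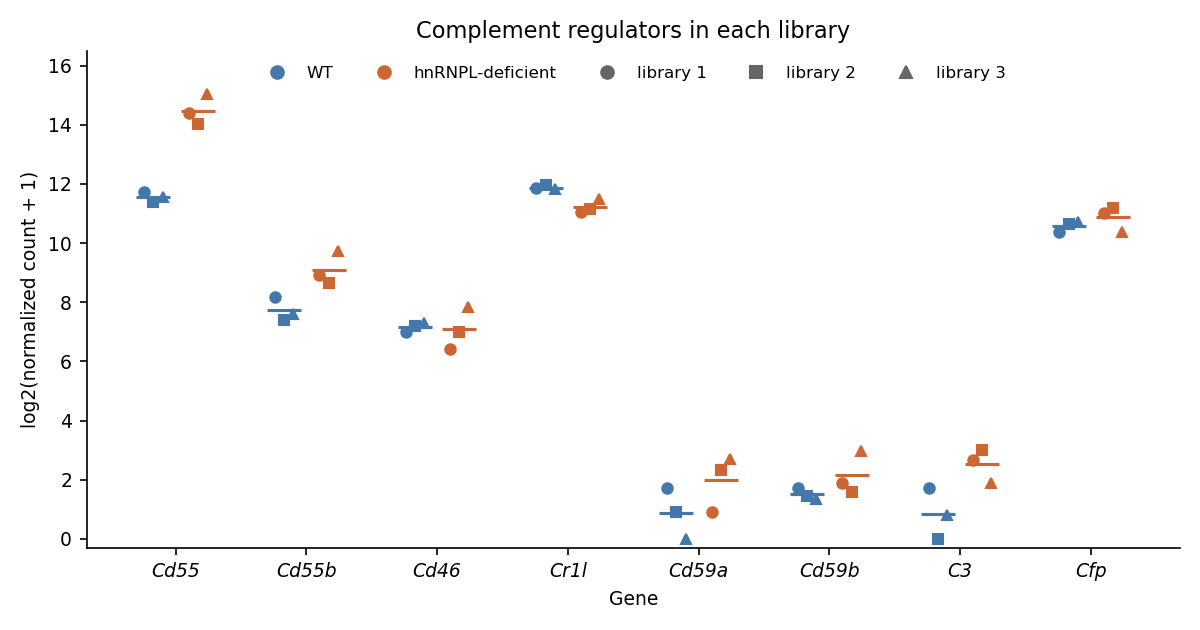
The 8 complement genes are plotted along the x axis and log2(normalized count + 1) on the y axis, with WT libraries in blue, hnRNPL-deficient libraries in orange, a marker shape for each library number and a line at each group mean. *Cd55* separates the groups by 2.93 log2 units, *Cd55b* and *Cr1l* by less, *Cd46* and *Cfp* overlap, and *Cd59a*, *Cd59b* and *C3* lie at a few reads.

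The inhibitors of the membrane attack complex were at the edge of detection in both groups. *Cd59a* had 2.32, 0.865 and 0 normalized counts in WT and 0.902, 4.04 and 5.48 in hnRNPL-deficient libraries, which is at most 4 reads per library. *Cd59b*, its duplicate, had 2.32, 1.73 and 1.53 in WT and 2.705, 2.02 and 6.85 in hnRNPL-deficient libraries, at most 5 reads. Both sets of values overlapped between the groups. A count of 0 allows up to 3 reads, or 2.29 to 4.11 normalized counts depending on the library, which covers counting error only. No fold was computed for either gene, and a difference was not detectable at this depth.

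*C3*, the central component from which the convertases are built, was also near 0. It had 2.32, 0 and 0.765 normalized counts in WT and 5.41, 7.07 and 2.74 in hnRNPL-deficient libraries, or 2, 0 and 1 reads against 6, 7 and 2 reads. The lowest hnRNPL-deficient library was just above the highest WT library on the normalized scale, but both held 2 reads. With a mean of 3.05 it fell below the filter, as did *Cd59a* and *Cd59b*, and no fold was computed.

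*Cfp*, the gene of the positive regulator properdin, was expressed at a high level in both groups. It had 1331, 1604 and 1695 normalized counts in WT and 2086, 2341 and 1339 in hnRNPL-deficient libraries. Libraries 1 and 2 of the hnRNPL-deficient group lay above all WT libraries, while library 3 lay among the lowest WT values, so the groups overlapped. The means were 1543 ± 189.5 and 1922 ± 521 (SD, n = 3 each), a log2 difference of 0.28 (standard error 0.205). It was 0.53 without hnRNPL-deficient library 3. *Cfp* is X-linked, and with the *Xist* level as a covariate the difference was 0.27. The library that was highest for *Cd55*, *Cd55b*, *Cd46* and, within its group, *Cr1l* was thus the lowest of its group for *Cfp*. It was also the shallowest library, and the part of depth in these values was not tested.

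Of the 8 genes, 5 averaged 10 or more normalized counts and could be tested, and 3 could not. With an adjusted p under 0.1 and a change of at least 1.5-fold, 2 of the 5 were higher (*Cd55* and *Cd55b*), 1 was lower (*Cr1l*) and 2 passed in neither direction (*Cd46* and *Cfp*). Among all tested genes 7.28% were higher and 4.08% lower by the same rule, or 11.4% in either direction. Values of WT and hnRNPL-deficient libraries did not overlap for *Cd55*, *Cd55b* and *Cr1l*, as was so for 34.0% of all tested genes, 17.7% with the hnRNPL-deficient libraries higher and 16.3% with them lower. Since the genes were chosen with this comparison known, these counts are only a description.

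Levels of different genes were compared per kb of exon sequence. In WT the order of mean normalized counts per kb was *Cfp* (889), *Cd55* (619.9), *Cr1l* (362), *Cd55b* (130.0), *Cd46* (18.6), *Cd59b* (1.43), *Cd59a* (0.586) and *C3* (0.200). The ranges over WT libraries did not overlap between neighbours in this order down to *Cd59b*, but did between *Cd59b* and *Cd59a* and between *Cd59a* and *C3*. In hnRNPL-deficient cells *Cd55* (4901) came before *Cfp* (1107), followed by *Cd55b* (344), *Cr1l* (235) and *Cd46* (19.3). There the ranges of *Cd55b* (239 to 507) and *Cr1l* (205 to 279) overlapped. *Cd59b* (2.97), *Cd59a* (1.92) and *C3* (0.986) came last, with ranges that overlapped from each to the next. Among the 17615 tested genes with a known exon length, the level of *Cd55* per kb ranked 4707th in WT and 667th in hnRNPL-deficient cells. The exon lengths count every annotated isoform, so the levels per kb of *Cr1l* and *Cd46*, with exon totals of 10349 and 7603 bases, may be understated.

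The other genes of the pathway were mostly silent in these B cells. Of 49 further complement genes listed by function, 26 had no read in any library and 41 had a mean under 10 normalized counts. None of the 12 soluble and other regulators passed the filter, and 9 of them were at 0 in all 6 libraries. None of the 7 terminal components and neither of the alternative pathway enzymes *Cfb* and *Cfd* passed. Of 18 genes that start the classical and lectin pathways, 3 were tested, and of 10 receptors, 5. The median log2 difference of these 8 tested genes was -0.07, beside -0.03 for all tested genes.

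Of the 8 tested genes 2 rose in hnRNPL-deficient cells, both of them receptors, beside 7.28% of all tested genes. *Cr2*, which encodes the receptors CD21 and CD35 for C3 fragments that lower the threshold of B cell activation, had 5189, 3382 and 3474 normalized counts in WT and 7031, 5425 and 9441 in hnRNPL-deficient libraries. All hnRNPL-deficient libraries were above all WT libraries, though hnRNPL-deficient library 2 was only just above WT library 1. This is a log2 fold change of 0.85 with a standard error of 0.225 (adjusted p = 0.0444 by limma). The call was lost without WT library 2 (adjusted p = 0.125), WT library 3 (0.143) or hnRNPL-deficient library 3 (0.110, from limma in each case), and adjusted p ranged from 0.000268 to 0.143 over all alternatives. *Cr2* gives the Cre its control sequences in both groups.

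*Cd93*, a surface glycoprotein first described as a C1q receptor and known as a marker of immature B cells, had 261, 395 and 337 normalized counts in WT and 713, 681 and 521 in hnRNPL-deficient libraries. The groups did not overlap, and here hnRNPL-deficient library 3 was the lowest of its group. On the log2 scale *Cd93* rose by 0.95 with a standard error of 0.199 (adjusted p = 0.0199 by limma), and the call was kept in all 17 alternatives that were run.

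No other complement gene was called lower by limma, edgeR or DESeq2, while 2 of them, *C1qbp* and *C4a*, had lower values at an unadjusted p under 0.05 in each of these tests. *C1qbp*, a mitochondrial protein that also binds C1q, had 18971, 17561 and 16238 normalized counts in WT and 14041, 13024 and 11248 in hnRNPL-deficient libraries. Its difference of -0.47, with a standard error of 0.113 (adjusted p = 0.0343 by limma), did not reach 1.5-fold. *C4a* had 42.9, 69.2 and 67.3 normalized counts in WT and 23.4, 39.4 and 35.6 in hnRNPL-deficient libraries (-0.85, adjusted p = 0.138 from limma). It is nearly identical to *C4b*, with which reads could be shared. The remaining 4 had differences of -0.07 for the integrin subunits *Itgb2* and *Itgam*, -0.06 for *C2* and -0.53 for *C1ra*, and none passed the test (adjusted p from 0.549 to 0.951 from limma).

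**Figure D2:**
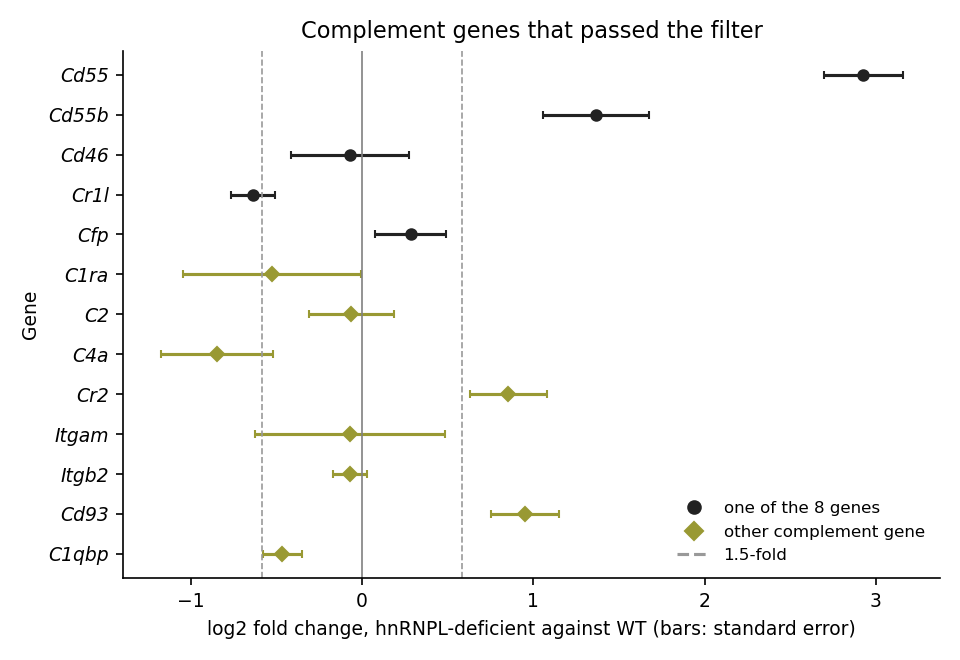
The log2 fold change of hnRNPL-deficient against WT libraries is plotted on the x axis, with bars of 1 standard error, for the 5 of the 8 genes and the 8 other complement genes that passed the filter on the y axis. Dashed lines stand at 1.5-fold. *Cd55* lies far to the right at 2.93, *Cd55b*, *Cd93* and *Cr2* lie beyond the right line, and *Cr1l* lies just beyond the left line.

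*Adgre5*, chosen after its values were seen, encodes CD97, an adhesion receptor that binds CD55 on other cells. It had 801, 889 and 966 normalized counts in WT and 2063, 2059 and 1676 in hnRNPL-deficient libraries. The groups did not overlap, and *Adgre5* was higher by 1.12 on the log2 scale with a standard error of 0.131. Given how it was chosen, this is only a description, and a link with *Cd55* was not tested.

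Around *Cd55* and *Cd55b*, 49 further genes lie within 1 Mb, and 24 of them were tested. Of these 1 was called higher and 3 lower, beside 7.28% and 4.08% of all tested genes. The gene called higher was *Gm15675*, a lincRNA on the same strand that lies between them, 1.83 kb past the end of *Cd55* and 6.77 kb before *Cd55b*. It had 154, 199 and 212 normalized counts in WT and 287, 499 and 862 in hnRNPL-deficient libraries (log2 fold change 1.41, standard error 0.357, adjusted p = 0.0389 from limma). All hnRNPL-deficient libraries were above all WT libraries, with library 3 again the highest. On the other side the nearest tested gene, *Gm37109*, held at most 23.3 normalized counts and was not called (1.49, adjusted p = 0.341 from limma).

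Of the 3 genes called lower in this region, *Il10* is the best known, as it encodes an anti-inflammatory cytokine that activated B cells release. It had 453, 252 and 242 normalized counts in WT and 135, 147 and 94.6 in hnRNPL-deficient libraries, with no overlap. *Il10* fell by 1.28 on the log2 scale with a standard error of 0.290 (adjusted p = 0.0262 by limma), and its start site lies 557 kb from that of *Cd55*. *AA986860* (-1.78, adjusted p = 0.0277 from limma, at most 32.1 normalized counts) was not called without WT library 2 or WT library 3. The antisense transcript *Gm15848* (-0.81, adjusted p = 0.0889 from limma) was lost when any 1 library was left out, with adjusted p of up to 0.256 over all alternatives.

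Around *Cr1l* and *Cd46*, 26 further genes lie within 1 Mb, of which 7 were tested and 5 were called higher, beside 7.28% of all tested genes. None was called lower by limma, edgeR or DESeq2 (4.08% of all tested genes by limma), and none had a lower value at an unadjusted p under 0.05. The 2 that were not called were *Plxna2* (0.54, adjusted p = 0.490 by limma) and *Gm37132*, which overlapped between the groups (-0.26, adjusted p = 0.681 by limma). Besides *Cr2*, the 5 were *A330023F24Rik*, *Gm37334*, *9630010A21Rik* and *Gm37366*, non-coding or unclassified transcripts on the strand opposite to *Cd46* and *Cr1l*. The study reported that more long non-coding RNAs rose than fell without hnRNPL. The share called higher among such transcripts alone was not computed here, so the share over all genes may be a low yardstick. *A330023F24Rik*, a long non-coding transcript whose end overlaps that of *Cd46* by 1079 bases, had 82.4, 78.7 and 95.6 normalized counts in WT and 177, 229 and 363 in hnRNPL-deficient libraries. The groups were well apart, and this transcript rose by 1.51 on the log2 scale with a standard error of 0.279 (adjusted p = 0.0124 by limma). *Gm37334* (1.83, adjusted p = 0.0317 from limma) and *9630010A21Rik* (2.01, adjusted p = 0.0898 from limma) lie inside *A330023F24Rik* on the same strand, so these are not independent of it, and *Gm37366* (1.52, adjusted p = 0.0514 from limma) lies inside *Cd46*. *9630010A21Rik* was not called without WT library 1 or 2 or hnRNPL-deficient library 2 or 3, and *Gm37366* was not called without WT library 1, 2 or 3 or hnRNPL-deficient library 3, with adjusted p of up to 0.222 and 0.1301 over their alternatives.

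**Figure D3:**
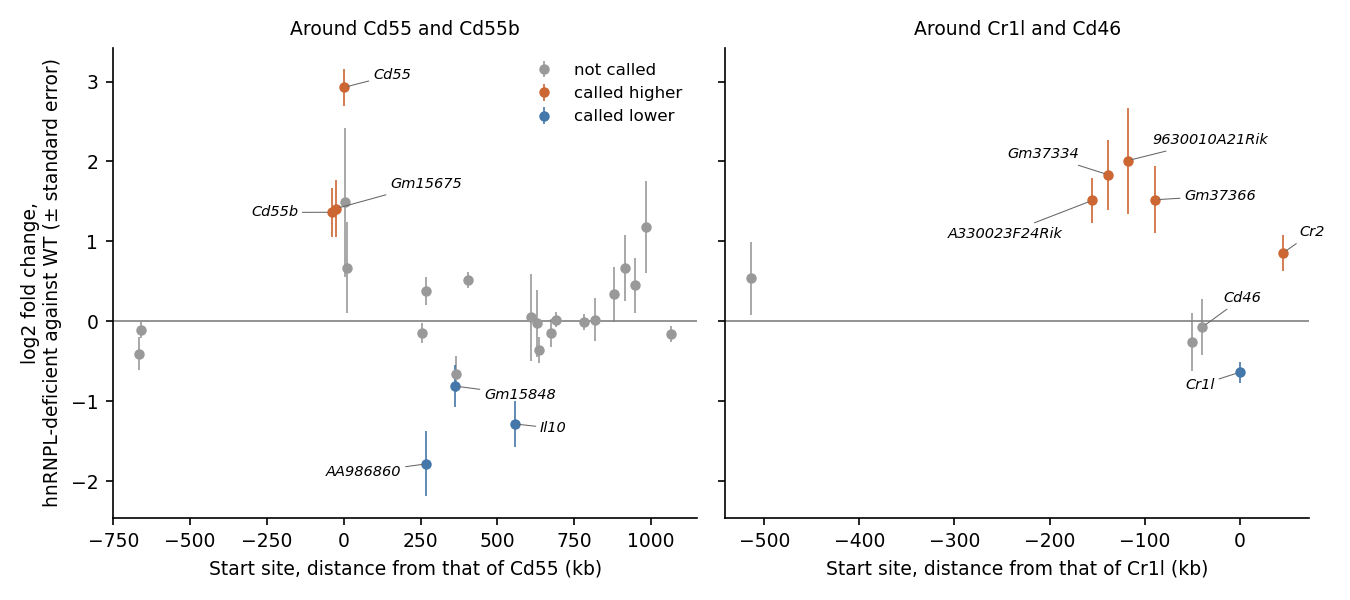
Each tested gene within 1 Mb is placed by the distance of its start site from that of *Cd55* (left) or *Cr1l* (right) in kb on the x axis and by its log2 fold change with 1 standard error on the y axis, coloured by whether it passed the thresholds. On the left *Cd55*, *Cd55b* and *Gm15675* stand above 1, as do the uncalled *Gm37109* (1.49) and *Gm29487* (1.18). *AA986860* (-1.78) and *Il10* (-1.28) lie lowest there, and most other genes lie near 0. On the right *Cr1l* lies below 0, beside *Cr2* and 4 non-coding or unclassified transcripts that lie above 0.

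The 6 libraries were also searched for genes whose pattern was most like that of *Cd55*. Over the 12391 genes that averaged 100 or more normalized counts, the 5 highest Pearson correlations of log2(normalized count + 1) with *Cd55* were those of *Dennd5b* (0.999), *Polk* (0.998), *Glipr1* (0.997), *Spg11* (0.997) and *Gm8369* (0.996). These correlations describe 6 libraries in 2 groups, and 469 genes exceeded 0.95, so a high value mostly reflects the gap between the genotypes. The 5 genes were picked for their likeness to *Cd55*, so a shared order of the libraries is no separate result. In the hnRNPL-deficient group library 3 was highest and library 2 lowest for each of them. They did not share the size of the *Cd55* difference. On the log2 scale theirs was 0.62 for *Dennd5b*, 1.35 for *Polk*, 1.89 for *Glipr1*, 0.27 for *Spg11* and 1.26 for *Gm8369*. *Polk* encodes a DNA polymerase that copies past damaged bases, *Spg11* a lysosomal protein and *Dennd5b* a DENN-domain protein. Of the complement genes and neighbours, *Cd55b* correlated with *Cd55* at 0.941, *Cr2* at 0.904, *Gm15675* at 0.868, *Cfp* at 0.284, *Cd46* at 0.049 and *Cr1l* at -0.837. How far reads from sequence shared with *Cd55* entered the value of *Cd55b* was not tested.

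**Figure D4:**
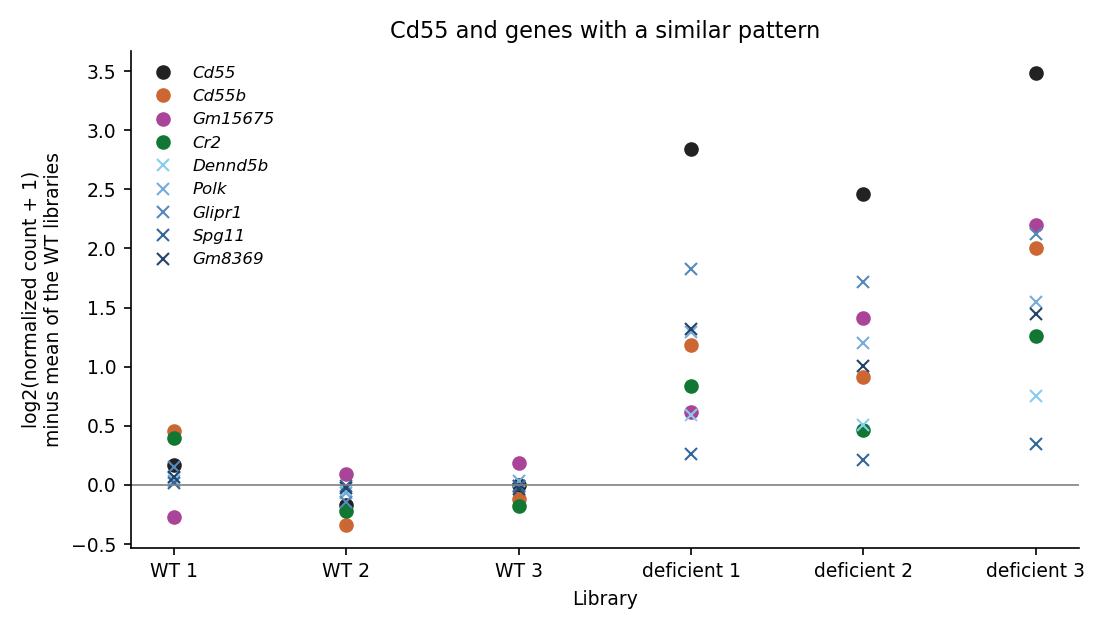
The y axis gives log2(normalized count + 1) minus the mean of the WT libraries, and the x axis the 6 libraries, for *Cd55*, *Cd55b*, *Gm15675* and *Cr2* (circles) and the 5 genes most correlated with *Cd55* (crosses). All 9 genes scatter around 0 in WT and lie above 0 in the hnRNPL-deficient libraries, highest in library 3, and *Cd55* lies above the rest in each hnRNPL-deficient library.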

How the data were processed

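RNA-seq of GFP+ splenic B cells, 3 WT and 3 hnRNPL-deficient samples, was analysed, with groups taken from the submitters' labels. Per the labels and the study's methods, the authors trimmed reads with fastp 0.23.1, aligned them to mm10 with STAR 2.7.9a, counted them per gene and strand with featureCounts and divided by DESeq2 1.38.2 size factors. The deposited values are these normalized counts, which were treated as a signal. Further deposited columns hold the authors' own DESeq2 comparison (log2 fold change, its standard error, a score, p-value, adjusted p-value) and were left out.

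Genes averaging 10 or more normalized counts, 17640 in all, were tested as log2(normalized count + 1) in limma, whose variance estimate followed a trend with the mean. Calls needed 1.5-fold or more and a p, adjusted by Benjamini-Hochberg, below 0.1. Adding 1 understates changes of low genes. Dividing by the value of 1 read (0.765 to 1.37 normalized counts) gave whole reads within 0.01 for 100% of values. Those of 5 libraries entered edgeR's quasi-likelihood test and DESeq2 as alternatives, which called 1072 higher and 707 lower genes (edgeR) and 1192 and 746 (DESeq2). An automatic test could not read the column of hnRNPL-deficient library 2. The tests were tried on simulated data. With 3 samples per group an exact permutation test of 1 gene cannot give a p under 0.1, and p-values measure the spread between these mice.

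The 8 genes, the gene lists and the motifs were chosen with earlier results of these data known. Genes named were these 8, *Hnrnpl*, listed complement and marker genes, called neighbours within 1 Mb and the nearest tested neighbours of *Cd55*, and the 5 genes most correlated with *Cd55*. *Adgre5*, *Xist*, *mt-Co2*, *Gm28661* and the 2 uncalled neighbours of *Cr1l* stand outside this rule and were named with their values known. Positions and exon lengths come from a GENCODE release on GRCm38 that matched 17615 tested genes by identifier, and promoters from RefSeq, in which all 8 genes matched. Software was R 4.3.3, limma 3.58.1, edgeR 4.0.16 and DESeq2 1.42.0.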

Additional observations from a re-analysis of the deposited data

How the results depend on the processing

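*Cd55* (log2 difference 2.65 to 3.20) and *Cd55b* (1.05 to 1.62) passed the thresholds in all 17 alternatives that kept these thresholds. As the 8 genes were chosen with this comparison known, which of them passed is only a description. *Cr1l* kept its direction (-0.77 to -0.54), and *Cfp* stayed between 0.12 and 0.53 without passing. The count of the 8 genes called lower, 1 in the report, was 0 with equal totals, with quantile normalization, by edgeR, by DESeq2 and at an adjusted p under 0.05 with 2-fold, and 0 to 1 when 1 library was left out. At those stricter thresholds 610 genes were higher and 216 lower, 0 other complement genes were higher, and 3 neighbours were higher. Leaving out 1 library in turn gave 850 to 1124 genes higher and 483 to 695 lower, 1 to 2 other complement genes higher and 0 to 1 lower, and 3 to 8 neighbours higher and 1 to 2 lower (3 lower in the report). The 3 neighbours higher came from leaving out WT library 2 or hnRNPL-deficient library 3, and the 1 lower from leaving out WT library 2 or 3. The fewest genes were called without WT library 3, with 850 higher and 483 lower. Without the mean-variance trend 1 other complement gene was higher, since *Cr2* was lost (adjusted p = 0.111 from limma). *C4a* made 1 other complement gene lower under quantile normalization, with the replicate number as a block and without WT library 1. The direction reversed for *Cd46* by edgeR (0.14), by DESeq2 (0.14) and without hnRNPL-deficient library 1 (0.27; -0.46 to 0.27 over libraries left out), for *Itgb2* under quantile normalization (0.018), for *C2* when WT library 1 (0.05) or hnRNPL-deficient library 1 (0.076; -0.22 to 0.076) was left out, and for *Itgam* by edgeR (0.053), by DESeq2 (0.022) and when WT library 1 (0.29) or hnRNPL-deficient library 3 (0.34; -0.45 to 0.34) was left out. The cause was not tested. Of the other values per gene and alternative, 423 kept direction and call, 35 lost and 3 gained the call.

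Samples with the same replicate number deviated together with correlations of 0.429, 0.320 and 0.0663. The numbers were not taken to pair them in the main test, and whether the samples were paired cannot be told from these values. WT 3 correlated better with hnRNPL-deficient 2 (0.305) than with its own number, and both of these libraries had high *Xist*. The replicate block gave 1755 genes higher and 1018 lower. Equal totals moved the median difference of all genes from -0.03 to 0.03, and no scaling moved the share of higher calls (64.1%) by more than 10 percentage points. Depth limits *C3*, *Cd59a* and *Cd59b*, which held at most 7 reads per library.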
